A study of Mus musculus with 60 samples.

Results

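Liver total RNA of male mice fed the control diet was compared between 60 and 40 weeks of feeding, with 5 libraries at 60 weeks (animals 11, 21, 22, 23 and 171) and 5 at 40 weeks (animals 492, 493, 501, 502 and 503). These 10 libraries were chosen by sex, diet and duration from the 60 of the series, which holds 12 groups of 5. All 60 mice belonged to the inbred strain CC042/GeniUnc of the Collaborative Cross, a panel of mouse strains bred from mixed founders, and no group carried an engineered allele. The control diet was TD.08485, low in fat and reduced in sucrose, and its high-fat, high-sucrose counterpart (HF/HS) was TD.88137. Groups set beside the main pair were male control at 20 weeks, female control at 40 and 60 weeks, and male HF/HS at 40 and 60 weeks. Neither the age at the start of feeding nor the hour at which livers were taken is given in the labels. Animal numbers at 60 weeks (11 to 171) and at 40 weeks (492 to 503) do not overlap, so a cohort and the duration of feeding cannot be told apart. Nothing in the labels says how the animals were housed or whether adjoining numbers share a litter. The p-values rest on the spread between libraries within groups, estimated over all 60 libraries and not over these 10 alone.

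Much of what follows concerns the circadian clock of the liver. BMAL1, the product of Arntl, pairs with CLOCK or NPAS2 and activates genes that carry an E-box, among them Dbp and the Per, Cry and Nr1d genes. The products of the Per, Cry and Nr1d genes in turn repress the pair or its genes. The NR1D proteins repress Arntl, Npas2, Nfil3 and Cry1 through ROR elements, which the activator RORA also binds, and DBP, TEF and HLF activate D-box genes that NFIL3 represses. In liver this loop times glucose, lipid and bile acid metabolism over the day, so that the level of each of its transcripts depends on the hour.

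Promoters are shown for clock genes that moved in opposite directions and for a heat shock gene, because the clock genes hold elements of the loop above and the other holds an element of the kind that heat shock factors bind. RefSeq windows (GRCm38.p6, 250 bases before to 50 after a start) were held for 27 of the 34 clock genes listed. Motifs were searched on both strands, and capitals mark every match: the D-box TTANGTAA in Per3 (chr4:151044616-151044915, minus strand), the E-box CACGTG in Ciart (chr3:95882179-95882478, minus strand), the ROR-type elements TAGGTCA or TGGGTCA in Arntl (chr7:113207261-113207560, plus strand) and Nfil3 (chr13:52980990-52981289, minus strand), and the heat shock type elements GAANNTTC or TTCNNGAA in Hspa1b (chr17:34959189-34959488, minus strand). Sequences run 5′ to 3′ along the gene.
Per3: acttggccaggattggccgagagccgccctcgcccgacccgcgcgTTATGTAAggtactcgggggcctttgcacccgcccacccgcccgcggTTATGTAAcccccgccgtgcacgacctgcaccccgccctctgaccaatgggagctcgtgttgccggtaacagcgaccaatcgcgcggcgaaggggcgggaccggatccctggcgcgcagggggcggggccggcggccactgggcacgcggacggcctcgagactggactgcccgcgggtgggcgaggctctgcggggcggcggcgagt
Ciart: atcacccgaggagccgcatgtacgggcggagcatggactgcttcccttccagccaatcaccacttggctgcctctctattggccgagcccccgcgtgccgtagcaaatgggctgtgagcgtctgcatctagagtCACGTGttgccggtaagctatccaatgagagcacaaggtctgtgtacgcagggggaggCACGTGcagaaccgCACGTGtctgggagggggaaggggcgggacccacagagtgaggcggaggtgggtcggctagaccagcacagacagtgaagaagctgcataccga
Arntl: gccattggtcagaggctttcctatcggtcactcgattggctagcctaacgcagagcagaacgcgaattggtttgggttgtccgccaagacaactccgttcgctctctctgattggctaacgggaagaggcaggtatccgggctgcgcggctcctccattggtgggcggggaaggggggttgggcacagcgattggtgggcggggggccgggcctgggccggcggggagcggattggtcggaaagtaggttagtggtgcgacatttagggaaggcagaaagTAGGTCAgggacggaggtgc
Nfil3: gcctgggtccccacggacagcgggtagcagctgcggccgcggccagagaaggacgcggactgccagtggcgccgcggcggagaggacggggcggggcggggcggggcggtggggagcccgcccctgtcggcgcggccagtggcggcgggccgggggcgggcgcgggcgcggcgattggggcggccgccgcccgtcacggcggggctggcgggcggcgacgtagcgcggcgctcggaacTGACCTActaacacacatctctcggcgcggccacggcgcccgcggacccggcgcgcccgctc
Hspa1b: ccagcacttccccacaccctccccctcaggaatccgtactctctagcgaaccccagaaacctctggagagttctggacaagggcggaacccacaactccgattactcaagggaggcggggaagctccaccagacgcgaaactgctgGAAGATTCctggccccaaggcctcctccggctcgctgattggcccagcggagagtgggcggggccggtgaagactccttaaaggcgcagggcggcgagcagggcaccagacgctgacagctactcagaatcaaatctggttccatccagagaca
Of all 32851 windows, 2.32% held a D-box, 7.15% an E-box, 6.45% a ROR-type element and 15.1% a heat shock type element. Of the 27 clock genes with a window, 7 held an E-box, 3 a ROR-type element and 1 a D-box in at least 1 window. The window of Dbp (chr7:45704997-45705296, plus strand) held none of these letters, which says nothing of sites elsewhere. A match is a description of the letters, not a measured binding site.

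The 10 libraries held 13741001 to 17505297 counts, and Pearson's r of log2 values over genes within a group was 0.975 to 0.992. Hepatocyte markers were abundant, and their 15 members summed to 43200 to 59000 CPM (counts scaled by library size and normalization factor), with albumin (Alb) at 8990 to 13200 CPM. The first principal component of the 10 libraries held 38.8% of the variance and parted the durations. The second held 19.2% and parted animals 23 and 171 from animals 11, 21 and 22 within the 60-week group. Of 14180 genes tested, 2284 (16.1%) were higher and 2080 (14.7%) lower at 60 weeks at a Benjamini-Hochberg adjusted p under 0.05 in edgeR's quasi-likelihood test. Among them 458 rose and 159 fell by at least 2-fold. CPM ranges of the groups did not overlap for 2869 genes (20.2%), of which 2562 were called. In bulk tissue, fewer cells of a type and less RNA per cell cannot be told apart. Gene lists were assembled with earlier results of these data known, and each is described by its counts and the median log2 fold change (60 minus 40 weeks) of its tested members, beside a median of 0.017 over all genes tested.

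**Figure D1:**
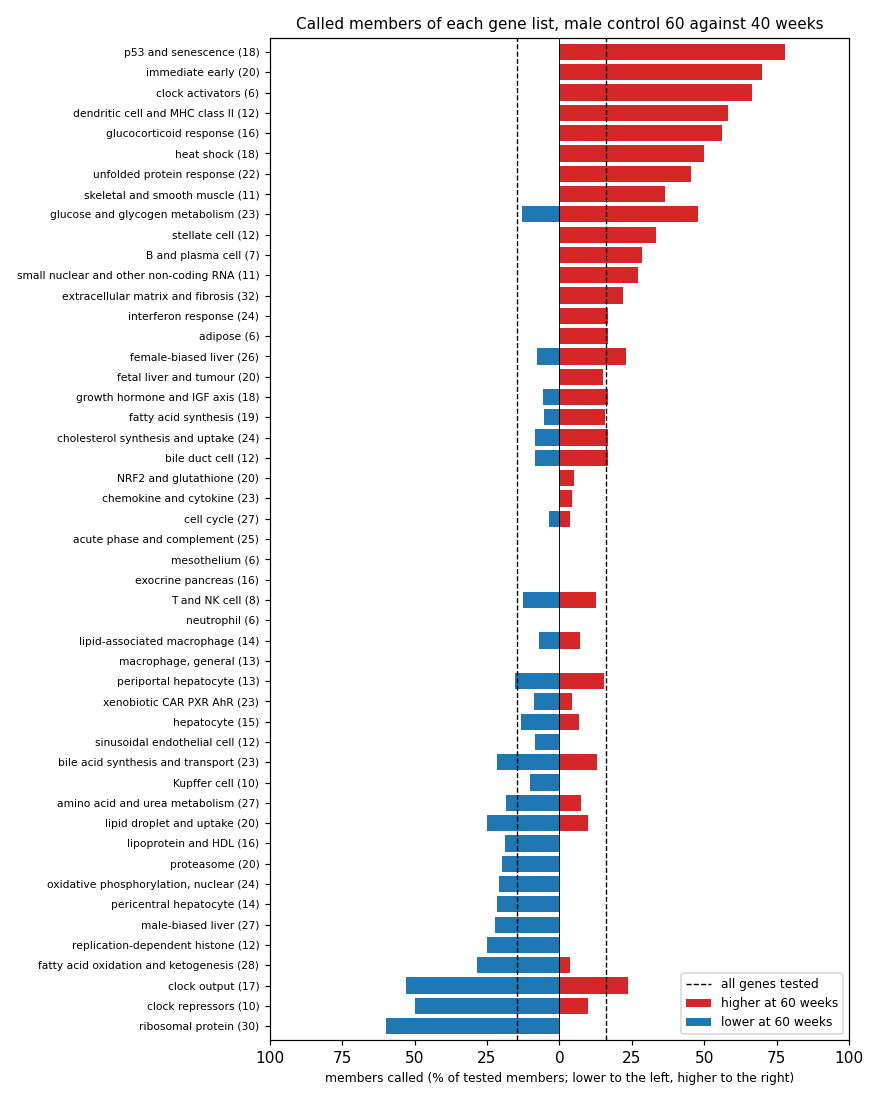
Share of each gene list's tested members (number in brackets) that were called higher (red, to the right) or lower (blue, to the left) at 60 than at 40 weeks in male control livers, in percent. Dashed lines mark the same shares over all 14180 genes tested, 16.1% higher and 14.7% lower, and the bars of p53 and immediate early genes on one side and of ribosomal protein genes on the other extend beyond them.

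Clock genes were among those with large changes in both directions. Dbp, a D-box activator on chromosome 7 (45705088 to 45710203, plus strand, mm10), was at 90.6, 99.7, 143, 84.1 and 149 CPM at 40 weeks and at 2.52, 3.10, 2.09, 3.85 and 2.51 CPM at 60 weeks. Its lowest 40-week library stood far above every 60-week library, and the fall was 40.4-fold (log2 -5.34 ± 0.75 SE, n = 5 against 5, edgeR adjusted p = 4.54e-07). Npas2, the partner of BMAL1 (chromosome 1, 39193731 to 39363236, plus strand), moved the other way, from 3.94, 3.31, 2.51, 2.42 and 1.42 CPM to 50.1, 29.5, 36.7, 43.1 and 40.0 CPM. The groups were far apart, and the rise was 14.7-fold (log2 3.88 ± 0.42 SE, edgeR adjusted p = 2e-09).

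Of the 6 clock activators and D-box repressors tested, 4 rose (66.7% against 16.1% of all genes) and none fell (median log2 1.33). Arntl, which encodes BMAL1 (chromosome 7, 113207465 to 113314126, plus strand) and has a ROR-type element in the window shown but none in its other window (chr7:113207215-113207514), was at 14.1, 14.2, 9.51, 12 and 5.41 CPM at 40 weeks and at 58.0, 50.4, 50.3, 57.9 and 53 CPM at 60 weeks. That was a 4.88-fold rise (log2 2.29 ± 0.23 SE, edgeR adjusted p = 3.75e-10) with groups that did not overlap. Nfil3, the D-box repressor shown with the same element, went from 15.5, 13.6, 15, 23.9 and 14.8 CPM to 68.9, 77.9, 79.0, 84.5 and 103 CPM, a 4.97-fold rise (adjusted p = 4.23e-07) in which animal 502 was the high library at 40 weeks. Rora, an activator at ROR elements, rose by 1.30-fold, from 237 to 290 CPM at 40 weeks to 338 to 374 CPM at 60 weeks. Clock itself was at 153 to 191 CPM and 163 to 249 CPM and missed the threshold (log2 0.21 ± 0.08, edgeR adjusted p = 0.0503), and it passed with RLE size factors (adjusted p = 0.0476) and with DESeq2 (adjusted p = 0.0445).

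Among the 10 repressors of the loop 5 fell (50% against 14.7% of all genes) and 1 rose (median log2 -0.60). Per3, whose window holds 2 D-boxes (gene on chromosome 4, 151003652 to 151044665, minus strand), was at 39.2, 49.9, 57.2, 38.6 and 56.6 CPM at 40 weeks and at 5.46, 7.82, 6.02, 7.47 and 8.98 CPM at 60 weeks, a 6.77-fold fall (adjusted p = 3.07e-06). Bhlhe41, which encodes the E-box repressor DEC2, went from 19.8, 21.7, 22.5, 14.6 and 23.8 CPM to 2.10, 2.02, 2.29, 3.85 and 1.87 CPM, an 8.48-fold fall (adjusted p = 2.24e-06). Neither gene's groups overlapped. Nr1d2, the gene of REV-ERBβ, fell by 1.94-fold from 181 to 215 CPM to 90.4 to 119 CPM, and Cry2 fell by 1.60-fold from 63.4 to 83.1 CPM to 39.7 to 62.2 CPM. The other cryptochrome gene, Cry1, rose by 2.38-fold, from 10.5, 15.3, 13.3, 9.08 and 9.81 CPM to 26.2, 22.5, 20.2, 28.8 and 40.3 CPM (adjusted p = 0.000141). Ciart, a repressor of BMAL1 with 3 E-boxes in its window, was lower by 2.64-fold with overlapping groups of 3.89 to 12.5 and 1.08 to 5.05 CPM (log2 -1.40 ± 0.55, edgeR adjusted p = 0.0471). Its call was lost on leaving out any of 7 libraries (animals 492, 493, 501, 503, 11, 22 and 23), with log2 values of -1.47 to -1.17 and adjusted p of 0.0509 to 0.122. The remaining members gave no call: Per1 had a log2 value of 0.95 ± 0.40 (adjusted p = 0.0632), Per2 of -0.42 ± 0.20 (0.0968), Nr1d1 of -0.52 ± 0.32 (0.22) and Bhlhe40 of -0.05 ± 0.13 (0.785). Limma voom called Per1 (adjusted p = 0.021) and Per2 (0.000518), and Per1 was also called with only the 10 libraries fitted (0.00312).

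Of 17 output genes of the clock tested, 9 fell and 4 rose (median log2 -0.56), and the groups of 14 did not overlap. The shares called were 52.9% lower and 23.5% higher, against 14.7% and 16.1% of all genes. Groups did not overlap for 20.2% of all genes. Tef, the second D-box activator, went from 210, 248, 282, 210 and 265 CPM to 72.7, 86.4, 75.5, 97 and 104 CPM, a 2.79-fold fall (adjusted p = 1.65e-05), while Hlf, the last of that family, fell by 1.62-fold from 138 to 172 CPM to 89.7 to 113 CPM. Usp2, a deubiquitinase driven by the clock, fell by 4.68-fold from 26.2 to 68.2 CPM to 5.63 to 15.8 CPM (adjusted p = 3.44e-06). Wee1, a kinase that delays mitosis, fell by 4.08-fold from 16.3 to 26.7 CPM to 2.73 to 6.90 CPM (adjusted p = 1.82e-07). Por, the electron donor of microsomal cytochromes P450, fell by 1.73-fold, Nampt, the rate-limiting enzyme of NAD salvage, by 1.51-fold, and Pnpla2, the triglyceride lipase ATGL, by 1.44-fold. Ppard, a nuclear receptor of fatty acids, rose from 13.2, 11.6, 12.4, 9.61 and 12.3 CPM to 75.4, 52.3, 59.3, 55.7 and 90.9 CPM, or 5.65-fold (adjusted p = 1.56e-05). Lonrf3 rose by 3.52-fold, Tsc22d3 (GILZ, also a glucocorticoid target) by 3.36-fold and Leo1, a member of the PAF1 complex, by 1.87-fold. Cyp7a1, the hydroxylase that starts the main route from cholesterol to bile acids, was lower by 2.82-fold with groups of 58.7 to 197 and 18.2 to 63.5 CPM that overlapped (adjusted p = 0.0417). This call was lost without any of 6 libraries (animals 501, 502, 21, 22, 23 and 171), with adjusted p of 0.0546 to 0.144. The members with no call were Alas1 (log2 0.23 ± 0.41), Tspan4 (-0.56 ± 0.23), Noct (0.95 ± 0.39) and Elovl3 (0.68 ± 0.36). With only the 10 libraries fitted, Tspan4 (adjusted p = 0.00926), Noct (0.0284) and Elovl3 (0.00368) were called, and limma voom called Tspan4 (0.000326) and Elovl3 (0.0479).

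**Figure D2:**
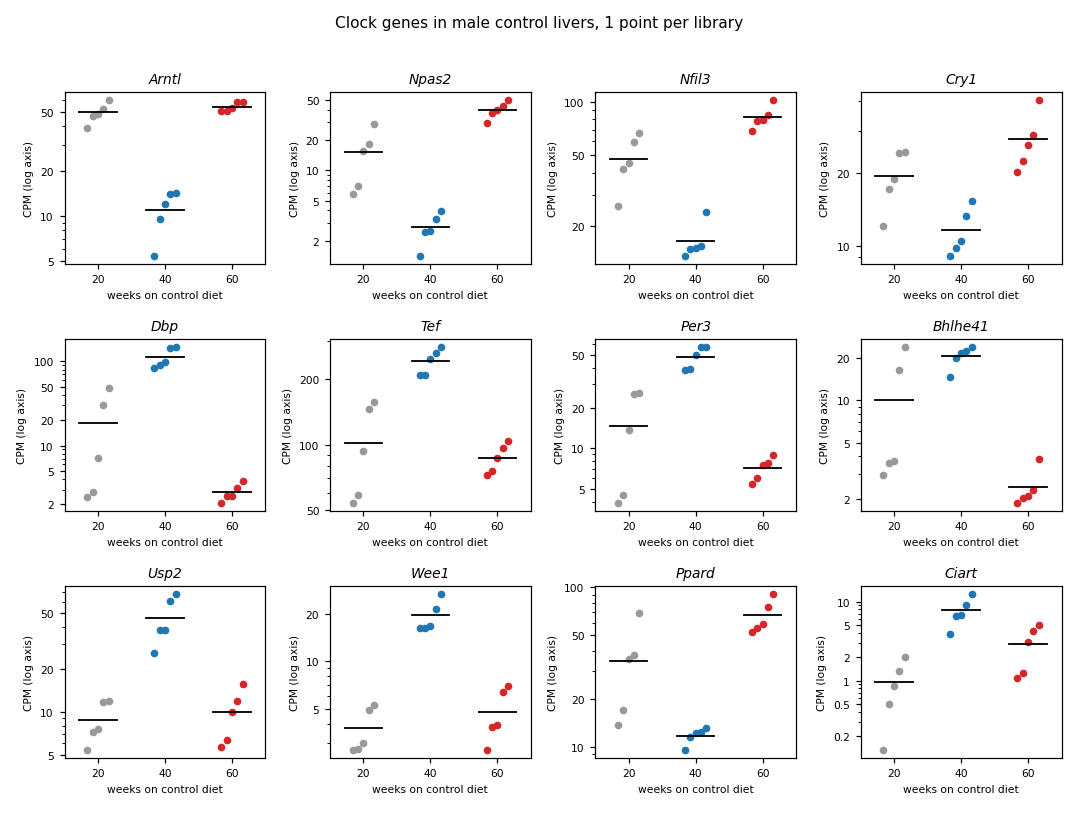
CPM (log axis) of 12 clock genes in male control livers at 20, 40 and 60 weeks of feeding, with 1 point per library and a bar at the mean of 5. Arntl at 40 weeks (5.41 to 14.2 CPM) lies below both other durations, Dbp at 40 weeks (84.1 to 149 CPM) lies above them, and at 20 weeks Dbp, Tef, Per3 and Bhlhe41 spread widely.

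The 20-week male control group stood nearer to the 60-week than to the 40-week group for part of these genes. Comparisons of 40 with 20 weeks (3284 genes called, 23.2% of those tested) and of 60 with 20 weeks (5212, 36.8%) share libraries with the main pair, so only their own values are given. Arntl was at 52.5, 47.1, 60.1, 38.9 and 48.4 CPM at 20 weeks, with a log2 value of 0.12 for 60 against 20 weeks (edgeR adjusted p = 0.671) and of -2.16 for 40 against 20 weeks (adjusted p = 4.27e-09). Usp2 likewise had 0.19 (adjusted p = 0.714) and 2.41 (2.47e-06), and Wee1 had 0.37 (0.337) and 2.40 (5.15e-08). Dbp was at 7.16, 48.9, 2.47, 30.4 and 2.79 CPM at 20 weeks, so that 3 libraries lay near or in the range of the 60-week group and the libraries of animals 182 and 372 lay between the groups. Those animals were also the highest of the 20-week group for Per3 (26.1 and 25.3 CPM), Bhlhe41 (23.9 and 16.4 CPM) and Tef (157 and 146 CPM). The hour of collection was not tested, as the sources used here do not give it.

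Clock genes were also compared in females of the same diet and in males of the HF/HS diet. Between 60 and 40 weeks, 2796 genes (19.7%) were called in control females and 3572 (25.2%) in HF/HS males. Dbp had log2 values of -5.34 ± 0.75 in control males, -4.25 ± 0.69 in HF/HS males and 0.15 ± 1.06 in control females. Npas2 had 3.88, 3.99 and 0.10 in the same order, Arntl 2.29, 2.85 and -0.16, Nfil3 2.31, 2.61 and 0.18, and Per3 -2.76, -2.74 and 1.21. In control females no listed clock gene was called lower and no activator was called. The repressors Ciart (log2 2.25), Per2 (0.75) and Cry2 (0.39) and the output genes Noct (2.71) and Tef (0.70) were called higher. The female change minus the male change was called for 1003 genes (7.07%), 533 of them positive. For Arntl this difference was -2.45 ± 0.31 (edgeR adjusted p = 2.95e-06), for Npas2 -3.78 (adjusted p = 2.26e-05), for Dbp 5.49 (0.00819), for Per3 3.97 (0.000112), for Usp2 3.22 (0.000104), for Bhlhe41 3.52 (0.00216) and for Tef 2.18 (0.000184). In the clock lists it was called for 3 of 6 activators (all negative), 7 of 10 repressors (6 positive) and 11 of 17 output genes (8 positive). A 60-week female library (animal 31) stood apart, with r of 0.963 to 0.974 to its group against 0.986 to 0.990 among the others, and a 60-week HF/HS male (animal 91) did so too, with r of 0.969 to 0.977 against 0.988 to 0.992. Without these and a 20-week male (animal 373), 1834 genes differed between the sexes. The HF/HS change minus the control change was called for 23 genes (0.162%), none of them a listed clock gene, with 1738 at an unadjusted p under 0.05. This count depended on the fit: it was 64 with DESeq2, 210 with only its own libraries, 778 with voom, 12 without animal 11 and 63 without animal 23.

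**Figure D3:**
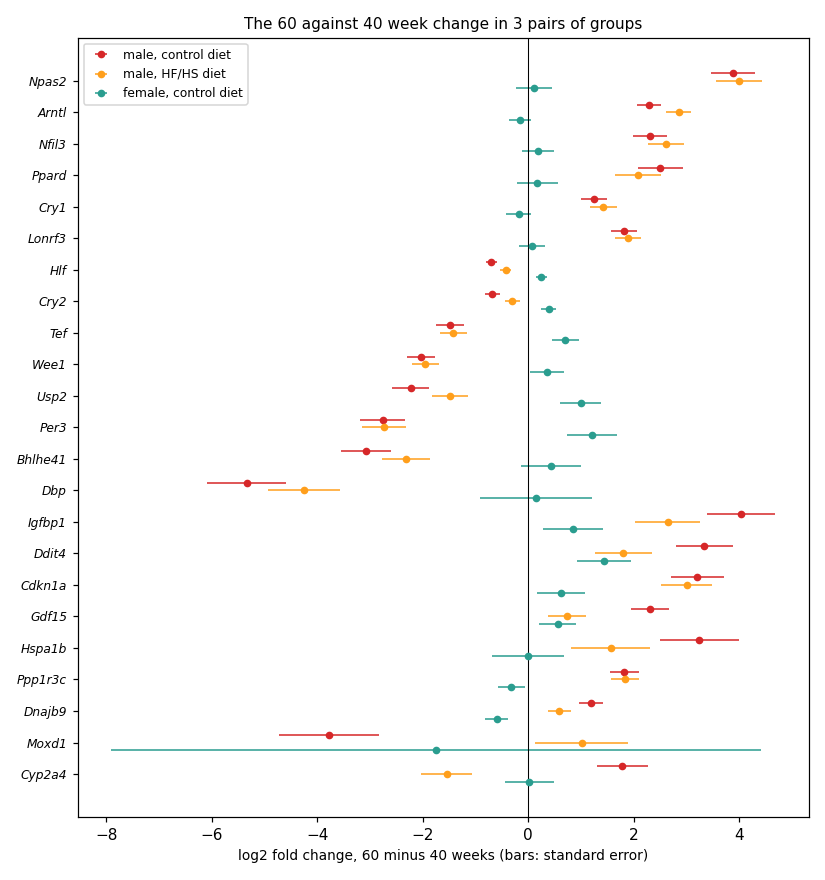
Log2 fold change, 60 minus 40 weeks, of 23 genes in control males (red), HF/HS males (orange) and control females (green), with bars of 1 standard error from the edgeR model. The 14 clock genes from Npas2 to Dbp lie on the same side of 0 in both male pairs (Dbp -5.34 and -4.25), while Moxd1 and Cyp2a4 lie on opposite sides between the diets and the female points stay nearer to 0 for Npas2 (0.10) and Arntl (-0.16).

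Several lists of stress-response genes had more members higher than lower at 60 than at 40 weeks, as counted below. Between the same weeks HF/HS males gave 2 higher and 1 lower for p53 and senescence genes and 3 and 0 for immediate early genes. They gave 5 and 0 for heat shock genes and 15 and 0 for the unfolded protein response (all genes 1741 and 1831). Control females gave 0 and 1, 2 and 0, 0 and 2, and 0 and 5 in that order (all genes 1546 and 1250). Against 20 weeks, the 60-week male control group had 2602 higher and 2610 lower of all 14180 genes tested. It had 14 higher and 0 lower of 18 p53 and senescence genes, and 12 and 1 of 20 immediate early genes. It had 0 higher and 4 lower of 18 heat shock genes. The unfolded protein response gave 4 and 4 of 22, about the shares of all genes. At 40 against 20 weeks, heat shock genes gave 0 higher and 8 lower, and the unfolded protein response 2 and 14. All genes gave 1476 and 1808 in that comparison. Igfbp1, a secreted binder of insulin-like growth factors that insulin represses (chromosome 11, 7197782 to 7202546, plus strand), showed the largest rise under the rule for named genes. It was at 14.8, 11.6, 20.7, 20.7 and 12.7 CPM at 40 weeks and at 307, 376, 200, 104 and 334 CPM at 60 weeks, a 16.4-fold rise (log2 4.03 ± 0.65, edgeR adjusted p = 4.91e-06) with groups that did not overlap. Cdkn1a, the cyclin-dependent kinase inhibitor p21 (chromosome 17, 29090976 to 29100727, plus strand), went from 53, 32.1, 25.9, 13.7 and 12.6 CPM to 189, 249, 254, 256 and 314 CPM, or 9.22-fold (adjusted p = 2.72e-06). Ddit4, an inhibitor of mTORC1 induced by stress and glucocorticoids, went from 16.1, 14.0, 17.4, 11.1 and 7.51 CPM to 87.7, 123, 42.4, 60.6 and 348 CPM, a rise of 3.33 on the log2 scale (adjusted p = 6.17e-06). Animal 171 was the highest by far, and without it the log2 value was 2.56.

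Of 18 p53 and senescence genes tested, 14 rose (77.8% against 16.1% of all genes) and none fell (median log2 0.68). Besides Cdkn1a these included Gdf15, a stress cytokine, at 15.1, 12.1, 12.2, 3.83 and 8.26 CPM and then 29.3, 43.0, 19.8, 23.3 and 139 CPM (log2 2.31, adjusted p = 3.28e-06). Animal 171 was again the highest, and without it Gdf15 had a log2 value of 1.48. Trp53inp1 rose by 3.02-fold, Phlda3 by 2.85-fold with overlapping groups, and Mdm2, the ubiquitin ligase of p53, by 1.69-fold. Of 20 immediate early genes 14 rose (70% against 16.1%) and none fell (median log2 0.98). Gadd45g, a stress sensor of the GADD45 family, went from 2.03 to 4.13 CPM to 12.8, 18.9, 14.9, 8.17 and 62.8 CPM (log2 2.92), with 2.13 on leaving out animal 171. Dusp1, a MAP kinase phosphatase, rose by 3.93-fold, Btg2 by 2.81-fold, and the rare transcripts Fosb (at most 0.221 CPM at 40 and 0.308 to 0.943 CPM at 60 weeks) and Egr3 by log2 values of 2.92 and 1.96. Without animal 501 Fosb had a log2 value of 3.79.

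Of 18 heat shock genes 9 rose (50% against 16.1% of all genes) and none fell (median log2 0.35). Hspa1b, an inducible HSP70 gene whose window holds a heat shock type element, went from 7.44, 6.54, 5.09, 8.43 and 6.36 CPM to 34.1, 71.0, 29.2, 85.0 and 102 CPM, a 9.44-fold rise (adjusted p = 0.000772). Hspa1a, its near-identical neighbour with which it can share reads, was at 0.292 to 0.944 CPM and 1.83 to 9.41 CPM (log2 3.16, adjusted p = 0.00525). Bag3, a partner of HSP70, rose by 1.99-fold and Hsph1, an HSP110, by 1.84-fold, and no group overlapped. At 20 weeks Hspa1b ran from 3.53 to 175 CPM, and 60 against 20 weeks gave a log2 value of -0.05 (adjusted p = 0.962). Of 22 genes of the unfolded protein response 10 rose (45.5% against 16.1%) and none fell (median log2 0.35). This count was 5 without animal 171 and 6 without animal 503. All genes called numbered 4187 and 3586 in those fits, against 4364. The 10 that rose included Herpud1 (2.46-fold) and Syvn1 (2.12-fold), both of the pathway that degrades misfolded proteins of the endoplasmic reticulum. Dnajb9 (2.28-fold) and Ddit3, which encodes CHOP (2.25-fold), were also among them.

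**Figure D4:**
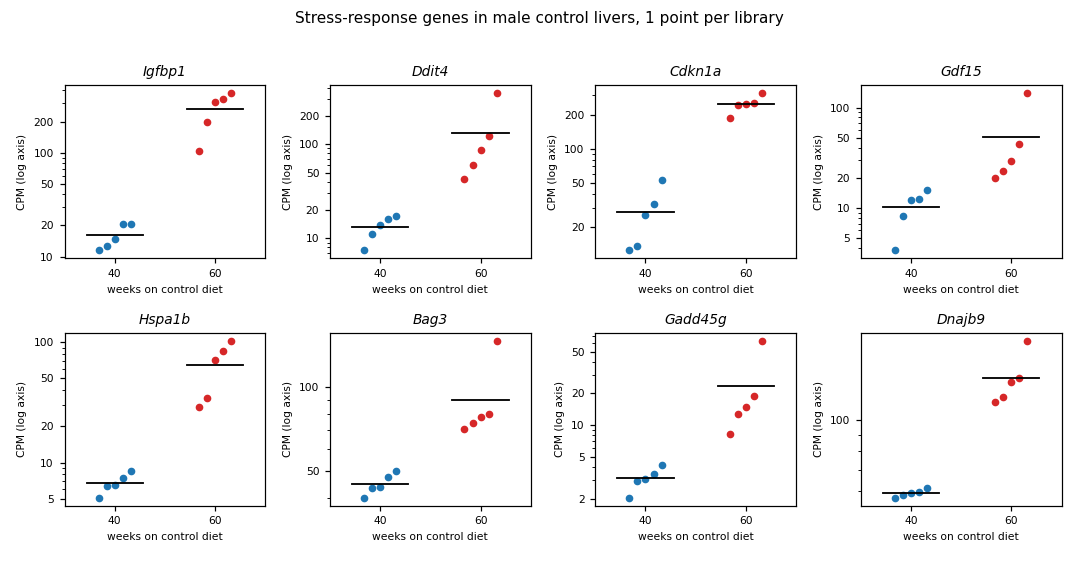
CPM (log axis) of 8 stress-response genes in male control livers at 40 and 60 weeks of feeding, with 1 point per library and a bar at the mean of 5. No pair of groups overlaps, Igfbp1 runs from 11.6 to 20.7 CPM at 40 weeks and from 104 to 376 CPM at 60 weeks, and animal 171 is the highest 60-week point for Ddit4 (348 CPM) and Gdf15 (139 CPM).

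Of 16 glucocorticoid targets 9 rose (56.2% against 16.1% of all genes) and none fell (median log2 0.87). Besides Igfbp1 and Tsc22d3 they included Tat, tyrosine aminotransferase, which went from 811 to 1180 CPM to 1760 to 2720 CPM (2.40-fold, adjusted p = 0.00355), and Zbtb16, a transcription factor that rose by 2.61-fold and lost its call without animal 502 (adjusted p = 0.0786). The same list gave 10 higher in HF/HS males and 1 in control females.

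Genes of glucose and glycogen handling were higher more often than lower, 11 against 3 of 23 tested (median log2 0.26). These shares were 47.8% and 13%, against 16.1% and 14.7% of all genes. Ppp1r3c, a subunit that directs protein phosphatase 1 to glycogen, went from 68.2, 74.7, 68.8, 73.9 and 77.2 CPM to 202, 266, 215, 340 and 259 CPM, a 3.53-fold rise (adjusted p = 1.45e-06). Ppp1r3g, of the same family, rose by 3.91-fold from 0.649 to 1.05 CPM to 1.39 to 4.96 CPM. Ppargc1a, a coactivator of fasting genes, rose by 2.51-fold, Pfkfb3, a regulator of glycolysis, by 2.48-fold and Irs2, an adaptor of the insulin receptor, by 2.11-fold. G6pc, the glucose 6-phosphatase, was higher by 1.90-fold with 325 CPM in animal 22 inside the 40-week range, and its call was lost without animal 502 (log2 0.87, adjusted p = 0.0541) or animal 171 (log2 0.62, adjusted p = 0.144). Gys2, the glycogen synthase of liver, fell by 1.76-fold from 194 to 280 CPM to 122 to 142 CPM (adjusted p = 1.45e-06). Pck1 had a log2 value of 0.26 ± 0.24 (adjusted p = 0.447).

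Of 28 genes of fatty acid oxidation and ketogenesis 8 fell (28.6% against 14.7% of all genes), 1 rose and 19 were not called, with log2 values of -0.64 to 0.60 (median of the list -0.17). Cpt1a, the enzyme that admits fatty acids to mitochondria, went from 847, 776, 804, 793 and 903 CPM to 535, 529, 543, 495 and 314 CPM, a 1.71-fold fall (adjusted p = 4.92e-05) in which animal 171 was the lowest. Ppara, the receptor that drives this set, fell by 1.31-fold, and without animal 171 its call was lost (log2 -0.30, adjusted p = 0.0521). Acot3, a peroxisomal thioesterase, was lower by 3.49-fold with 58.9 CPM in animal 503 against at most 19.1 CPM in the other 40-week libraries, and without that animal the call was lost (log2 -1.19, adjusted p = 0.135). The member that rose was Pdk4, which turns pyruvate dehydrogenase off in fasting, from 9.77 to 13.6 CPM to 29.7 to 50.6 CPM (3.41-fold, adjusted p = 4.61e-05). At 40 against 20 weeks the list gave 12 higher and none lower.

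Of 19 genes of fatty acid synthesis 3 rose and 1 fell (15.8% and 5.26%, at or below the 16.1% and 14.7% of all genes), and 7 to 9 were called in all when fewer libraries were fitted, with voom or with a clock covariate. Pnpla3, a lipid droplet protein induced by feeding, went from 27.2, 10.9, 11.9, 7.90 and 5.14 CPM to 161, 85.6, 107, 49.2 and 103 CPM (8.05-fold, adjusted p = 0.000261), fatty acid synthase (Fasn) rose by 2.44-fold and Mlxipl, which encodes the glucose-sensing factor ChREBP, by 1.78-fold. Elovl1, an elongase of very long chains, fell by 1.27-fold. Among 24 genes of cholesterol synthesis and uptake 4 rose and 2 fell (16.7% and 8.33%, again near or below the background), or 3 in all without animal 493 or animal 503. Those that rose included Insig1 (1.86-fold), a target of SREBP2 that holds its precursor in the endoplasmic reticulum. In the 20 genes of lipid droplets and uptake 5 fell and 2 rose (25% and 10%), or 4 in all without animal 503 or animal 171. The pair that rose was Plin4, a droplet coat protein, from 9.74 to 19.8 CPM to 30.2 to 73.5 CPM (3.25-fold), and Vldlr, a lipoprotein receptor, from 4.13 to 6.64 CPM to 6.83 to 21.1 CPM (2.75-fold). In bile acid genes 5 of 23 fell and 3 rose, or 5 in all without animal 171. These shares were 21.7% lower against 14.7% of all genes and 13% higher against 16.1%. Besides Cyp7a1, Nr1h4, which encodes the bile acid receptor FXR, fell by 1.43-fold, while Nr0b2, its target SHP, rose by 2.20-fold with overlapping groups.

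Sex-biased genes, which the pulses of growth hormone keep apart in males and females, moved unevenly within the 60-week group. Mean log2 CPM of the male-biased list was 8.03 to 8.31 at 40 and 6.92 to 7.85 at 60 weeks, without overlap. That of the female-biased list was 0.67 to 1.04 and 0.79 to 2.08, with overlap. Of 27 male-biased genes tested 6 fell and none rose (median log2 -0.50), which is 22.2% against 14.7% of all genes lower. Of 26 female-biased genes 6 rose and 2 fell (median log2 1.26), or 23.1% higher against 16.1% of all genes and 7.69% lower against 14.7%. Moxd1, a monooxygenase-like gene (chromosome 10, 24223517 to 24302790, plus strand), was at 284, 338, 245, 627 and 376 CPM at 40 weeks and at 0.540, 0.337, 3.14, 6.70 and 128 CPM at 60 weeks. Animal 171 was much the highest of its group yet below every 40-week library, and the fitted log2 value was -3.77 ± 0.95 (edgeR adjusted p = 0.00187) with it and -7.20 without it. Ugt2b38, a glucuronosyltransferase of a family whose members can share reads, fell by 6.81-fold from 4.13 to 10.5 CPM to 0.393 to 2.16 CPM (adjusted p = 1.38e-05). The other 4 were close to the threshold: C6 (log2 -0.70), Susd4 (-0.72), Cyp4a12a (-0.63) and Nudt7 (-0.62). Leaving out 1 library at a time ended the call of C6 for animals 493, 501, 502, 503, 11 and 21 (adjusted p of 0.0519 to 0.0852, log2 -0.71 to -0.64), of Susd4 for animals 493, 502, 503, 11, 21 and 22 (0.0586 to 0.117, log2 -0.72 to -0.60), of Cyp4a12a for all but animals 11 and 171 (0.0556 to 0.108, log2 -0.66 to -0.57) and of Nudt7 for animals 503 and 21 (0.0531 and 0.0732, log2 -0.58 and -0.53). The list's count was 2 without animal 503 or animal 21 and 3 without animal 493 or animal 502. It was 15 when only the 10 libraries were fitted, 17 with limma voom and 14 without the 3 libraries that stood apart in other groups.

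Members of the male-biased list with no call ran from log2 -1.25 to 0.68. Several parted animals 11, 21 and 22 from animals 23 and 171 within the 60-week group. Selenbp2 was at 55.4, 44.7 and 55.2 CPM in animals 11, 21 and 22 and at 244 and 406 CPM in animals 23 and 171, against 179 to 501 CPM at 40 weeks (log2 -1.25 ± 0.57, adjusted p = 0.0869). Cyp2d9 was at 411, 353, 467, 888 and 942 CPM in that order, against 920 to 1180 CPM at 40 weeks (log2 -0.78, adjusted p = 0.0957). Hsd3b5 had a log2 value of -0.83 (adjusted p = 0.25) and Mup20 of -0.26 (0.549). Limma voom called Selenbp2 (log2 -2.34, adjusted p = 8.43e-07), Cyp2d9 (-1.16, 2.75e-05) and Hsd3b5 (-1.2, 0.00279) lower. With only the 10 libraries fitted, edgeR called Cyp2d9 (adjusted p = 0.0338). Without the 3 libraries that stood apart in other groups, edgeR called Cyp2d9 (0.00594) and Selenbp2 (0.0101).

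On the female-biased side Cyp2a4, a steroid hydroxylase whose reads can be shared with Cyp2a5 (chromosome 7, 26307169 to 26315088, plus strand), was at 61.1, 43.7, 57.8, 34.8 and 40.4 CPM at 40 weeks. At 60 weeks it was at 234, 258 and 198 CPM in animals 11, 21 and 22 and at 46.1 and 77.7 CPM in animals 23 and 171 (log2 1.78 ± 0.48, edgeR adjusted p = 0.00394). Hao2, a peroxisomal hydroxy acid oxidase, was at 0.295 to 0.947 CPM and then at 4.14, 6, 3.93, 1.16 and 0.503 CPM (log2 2.48, adjusted p = 0.00422). Slc22a27, a transporter, followed with 1.35 to 2.14 CPM and then 9.78, 11.7, 3.79, 1.16 and 0.934 CPM. Its call was lost without animal 11 (log2 1.38, adjusted p = 0.0507) or animal 21 (log2 1.24, adjusted p = 0.0794). The call was also lost with only the 10 libraries fitted (edgeR adjusted p = 0.0512). Sult1e1, the estrogen sulfotransferase, was apart in all libraries, from 38.6, 40.5, 38.9, 43.3 and 30.6 CPM to 86.8, 126, 83.0, 71.2 and 94.2 CPM (2.40-fold, adjusted p = 2.58e-05). Cyp2b10, a target of the receptor CAR, was higher by 2.56-fold with overlapping groups and lost its call without animal 493, 501, 503, 11 or 21 (log2 1.05 to 1.33, adjusted p of 0.0537 to 0.128). Sult2a2 rested on 1 count at 40 and 11 counts at 60 weeks, a ratio of 11.0 with an exact 95% interval of 1.60 to 474 for counting error, and its call was lost without any of 7 libraries (animals 493, 501, 502, 503, 11, 21 and 171, with adjusted p of 0.0651 to 0.124). The members that fell were Cyp2c69 (6.87-fold, from 6.93 to 31.9 CPM to 0.876 to 3.72 CPM) and Acot3. Cyp2c40, of the same P450 family and able to share reads, fell by 4.71-fold. The list's count was 5 without animal 503 or animal 11.

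The growth hormone and IGF axis gave 3 higher and 1 lower of 18 tested (median log2 -0.10), or 16.7% higher against 16.1% of all genes and 5.56% lower against 14.7%, no more than the background. Besides Igfbp1 these were Igfbp3 (1.53-fold, 28.8 to 39.8 CPM and 42.8 to 64.8 CPM) and Stat5b (1.44-fold, 106 to 122 CPM and 153 to 175 CPM), the signal transducer of the growth hormone receptor. Stat5a was lower by 1.27-fold, and its call was lost without animal 492, 502, 21, 22, 23 or 171 (log2 -0.36 to -0.29, adjusted p of 0.0523 to 0.112). Igf1 was at 1100 to 1400 CPM and 935 to 1110 CPM and was not called (log2 -0.25 ± 0.12, edgeR adjusted p = 0.113). With only the 10 libraries fitted (adjusted p = 0.0244) or male libraries only (0.0422), edgeR called Igf1 lower, as did limma voom (0.0342).

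Of 12 dendritic cell and MHC class II genes 7 rose (58.3% against 16.1% of all genes) and none fell (median log2 0.72). H2-Eb1, a class II chain, was at 22.8, 18.3, 42.2, 20.9 and 20.9 CPM at 40 weeks and at 63.4, 64.6 and 56.9 CPM in animals 11, 21 and 22 against 19.3 and 26.5 CPM in animals 23 and 171 (log2 0.89 ± 0.26, edgeR adjusted p = 0.00722). Cd74, the invariant chain, was at 68.0 to 130 CPM and then at 190, 203, 182, 68.2 and 88.0 CPM (log2 0.71, adjusted p = 0.0156). The calls of H2-Aa (log2 0.72) and H2-Ab1 (log2 0.66) were each lost without animal 492, 493, 502, 503, 11, 21 or 22, with adjusted p of 0.0728 to 0.165 and of 0.0767 to 0.139 and log2 values down to 0.52 and 0.50. That of Cd74 was lost without animal 493, 11, 21 or 22 (adjusted p of 0.0518 to 0.0763, log2 0.55 to 0.62). Ciita, the class II transactivator, had a log2 value of 0.90 and lost its call without animal 493 (0.76, adjusted p = 0.0535) or animal 21 (0.72, adjusted p = 0.0682). Clec9a, a receptor of conventional dendritic cells, was apart in every library, from 5.47, 4.13, 6.19, 3.36 and 3.32 CPM to 10.8, 14.1, 9.75, 14.4 and 10.4 CPM (2.65-fold, adjusted p = 3.2e-06). With only the 10 libraries fitted, edgeR did not call H2-Eb1 (adjusted p = 0.0619), Cd74 (0.076), H2-Ab1 (0.114) or H2-Aa (0.132). With male libraries only, H2-Ab1 (0.0755) and H2-Aa (0.0849) were not called. Ciita and Clec9a kept their calls in both fits. The list's count was 2 without animal 493, 3 without animal 21 and 4 without animal 502, 11 or 22.

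Other immune lists gave few calls. Of 10 Kupffer cell genes 1 fell, C6, which is also in the male-biased list (10% against 14.7% of all genes), and none rose. Their summed level was 934 to 1060 CPM at 40 and 677 to 735 CPM at 60 weeks. C6, at 482 to 540 and 252 to 354 CPM, made up much of that sum. The mean log2 CPM of the list overlapped, at 3.98 to 4.59 and 3.80 to 4.29. None of the 13 general macrophage genes was called by edgeR (1 at an unadjusted p under 0.05) or DESeq2, and voom called 2, while their summed level was 323 to 505 CPM at 40 weeks and 578, 689, 571, 253 and 319 CPM at 60 weeks, again with animals 11, 21 and 22 high. Lipid-associated macrophage genes gave 1 higher and 1 lower of 14 (7.14% each way), a total of 4 without animal 501 or animal 171 and of 5 without animal 23. Fabp5, a fatty acid binding protein, fell by 4.02-fold from 23.2 to 42.5 CPM to 6.6 to 10.6 CPM (adjusted p = 0.000911). Itgax was higher (log2 1.01) but lost its call without animal 492, 493, 502, 503, 11, 21 or 22 (log2 0.52 to 0.96, adjusted p of 0.0715 to 0.33). Of 24 interferon-response genes 4 rose and none fell (16.7% against 16.1% of all genes), among them Oas2 (2.27-fold) and Rsad2 (1.79-fold, at 20.7, 19.7 and 18.3 CPM in animals 11, 21 and 22 and 5.16 and 9.05 CPM in animals 23 and 171). Without animal 23 this count was 14, and without animals 22 and 23 it was 7. With only the 10 libraries fitted, Rsad2 was not called (edgeR adjusted p = 0.0634). Plasma cell transcripts gave 2 of 7 higher, Jchain (2.05-fold) and Mzb1 (2.71-fold, with animals 23 and 171 highest at 2.08 and 2.37 CPM). Of 8 T and NK cell genes Lck was higher (log2 1.44) but not without animal 21 (1.2, adjusted p = 0.0593). Trat1 had 58 counts at 40 weeks, most of them in animal 502 (2.71 CPM), and 0 at 60 weeks. With 3 counts set for the 60-week group, the pooled counts were at least 19.3-fold lower. This bound covers counting error only and leaves out the spread between animals. The call of Trat1 was lost without any of 6 libraries (animals 502, 11, 21, 22, 23 and 171, with edgeR adjusted p of 0.0518 to 0.25). None of the 25 acute phase and complement genes was called by edgeR, with 2 at an unadjusted p under 0.05, 1 called by DESeq2 and 2 by voom.

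Matrix genes gave 7 higher and none lower of 32 (21.9% against 16.1%, median log2 0.34), and 3 without animal 21. Thbs1, a matricellular protein, was higher by 3.22-fold with overlapping groups of 0.947 to 3.39 and 2.62 to 13.4 CPM. Col5a1, a fibrillar collagen chain, went from 15.4 to 21.4 CPM to 27.6 to 45.3 CPM (1.87-fold, adjusted p = 3.36e-06). Stellate cell markers gave 4 higher of 12 (33.3%), with 2 left without animal 502 or animal 503 and 1 without animal 21. Cell cycle genes gave 1 higher, Birc5 (1.92-fold), and 1 lower, Ccne1, the gene of cyclin E1, of 27 (3.7% each way, below the shares of all genes). Ccne1 went from 2.77 to 5.53 CPM to 0.385 to 1.5 CPM (4.16-fold, adjusted p = 1.55e-06). Pericentral hepatocyte genes gave 3 lower of 14 (21.4% against 14.7% of all genes). Among them were Tbx3, at 106 to 199 CPM and then 41.1 to 75.6 CPM (2.52-fold), and Rnf43, a target and inhibitor of Wnt signalling, at 37.3 to 45.8 CPM and then 16.9 to 26.6 CPM (1.94-fold).

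**Figure D5:**
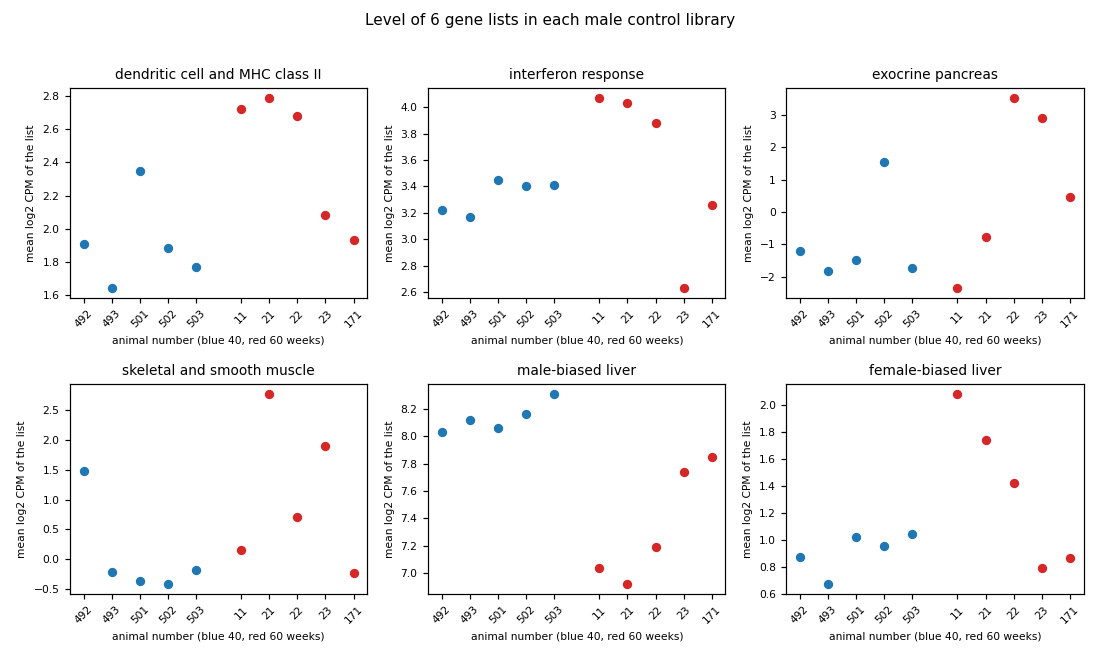
Mean log2 CPM of 6 gene lists in each male control library, by animal number, at 40 weeks (blue) and 60 weeks (red). Animals 11, 21 and 22 are high for class II genes (2.68 to 2.79) and female-biased genes (1.42 to 2.08) and low for male-biased genes (6.92 to 7.19), while exocrine pancreas genes are highest in animals 22 (3.53), 23 (2.90) and 502 (1.54) and muscle genes in animals 21 (2.78), 23 (1.91) and 492 (1.49).

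RNA of neighbouring tissues moved with single libraries. None of the 16 exocrine pancreas genes tested was called by edgeR or DESeq2, and 3 had an unadjusted p under 0.05, although their median log2 value was 2.57. Without animal 502, 4 were called, and 3 were with male libraries only. Their summed level was 268, 183 and 50.7 CPM in animals 22, 23 and 171 at 60 weeks, 80.9 CPM in animal 502 at 40 weeks, and 19.4 to 32.0 CPM in the other 6 libraries. Pnlip, pancreatic lipase, was at 26 and 17.8 CPM in animals 22 and 23, 0 in animal 11 and 6.37 CPM in animal 502 (log2 2.54 ± 1.42, edgeR adjusted p = 0.17), and Ctrb1, chymotrypsinogen, was at 31.6 and 21.6 CPM in animals 22 and 23 (log2 2.71, adjusted p = 0.142). Sycn, a zymogen granule protein outside that list, was called (log2 3.82, adjusted p = 0.0396), but not without animal 492, 493, 501, 503, 22 or 23 (log2 3.02 to 3.69, adjusted p of 0.075 to 0.151), and it had 5.97 without animal 502. Skeletal muscle transcripts were high in other animals, with Acta1 at 15.2 CPM in animal 21, 3.77 CPM in animal 23 and 2.92 CPM in animal 492 (log2 2.42 ± 1.60, adjusted p = 0.255) and Ckm at 5.73 CPM in animal 21 (log2 2.73, adjusted p = 0.18). The 4 members of the muscle list that rose were Tagln, Des, and the smooth muscle genes Myh11 and Acta2, with Myh11 at 5.89 to 6.93 CPM and 11.6 to 14.6 CPM (1.97-fold, adjusted p = 0.00053) and Acta2 at 5.94 to 8.17 CPM and 8.19 to 15.2 CPM (1.76-fold), and 2 of them were left without animal 493 or animal 503. The part of tissue carried over in these results was not tested. Without animals 22 and 23, 12 of the 115 called genes considered for naming lost their call: Acot3, C6, Ciart, Cyp4a12a, Cyp7a1, Jchain, Nudt7, Slc35f1, Stat5a, Sycn, Trat1 and Zbtb16.

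Of 11 small nuclear and other non-coding RNA genes 3 rose, none fell and 8 were not called, with log2 values of -0.16 to 0.25 (27.3% higher against 16.1% of all genes). Neat1, the scaffold of paraspeckles (chromosome 19, 5824708 to 5845478, minus strand), went from 587, 772, 1170, 427 and 297 CPM to 3750, 6040, 6400, 5480 and 5010 CPM, an 8.22-fold rise (adjusted p = 3.05e-09). It also rose in control females (log2 2.31) and HF/HS males (2.50), and the female change minus the male change was not called (log2 -0.73, adjusted p = 0.327). Malat1, its nuclear neighbour, rose by 1.57-fold. Mir6353, an annotated microRNA gene on the same strand inside Pid1, whose counts may be reads of that gene, rose from at most 0.472 CPM to 1.32 to 3.66 CPM (log2 2.86). Of 30 ribosomal protein genes 18 fell and none rose (60%, median log2 -0.20), by up to 0.42 on the log2 scale in Rpl37 (59.6, 55.9, 56.8, 62.9 and 58.1 CPM to 45.3, 39.1, 42.8, 43.6 and 48.3 CPM). In control females 25 of the 30 fell and in HF/HS males 5. Proteasome genes gave 4 lower of 20 (20%) and replication-dependent histone genes 3 lower of 12 (25%), against 14.7% of all genes. Hist1h1e was down by 1.79-fold. RNA quality was not given for the libraries in the sources used here, and its part was not tested.

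Further genes with groups that did not overlap were outside the lists. Sertad4 fell by 4.70-fold, from 2.33 to 3.31 CPM to 0.120 to 1.16 CPM. Slc35f1, a predicted solute carrier, was at 10.6, 12.9, 11.4, 11.9 and 13.3 CPM and then at 0.420, 0.270, 0.262, 2.70 and 9.63 CPM (log2 -2.20 ± 0.63, adjusted p = 0.00574). Animal 171 was the highest of its group, as in Moxd1, and the log2 value without it was -3.80. Among the 23 genes whose change differed between the diets, Cyp2a4 had log2 values of 1.78 on the control and -1.55 on the HF/HS diet (difference -3.32, edgeR adjusted p = 0.0148), and Cyp2a5, with which it can share reads, 0.78 and -1.83 (difference -2.61, adjusted p = 0.00606). Ddah1, which degrades methylarginines, was at 40.8, 26.5, 49.8, 28.9 and 26.3 CPM and then at 152, 214, 106, 103 and 35.4 CPM on the control diet (log2 1.83), with -0.20 on the HF/HS diet (difference -2.03, adjusted p = 0.00687). Between the sexes, pancreas genes had some of the largest called differences, among them Sycn (-10.86), Reg1 (-10.21) and Clps (-9.85). In females all 16 exocrine pancreas genes tested were lower at 60 weeks.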

How the data were processed

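Liver total RNA libraries (ribosomal RNA depleted, stranded kit, NextSeq 500, per the labels' protocols) were deposited by the authors as raw read counts per gene, not normalized, with mm10 named in the submitters' processing notes. No label or file header read here names an aligner, counter, annotation or strand setting. Of 24982 entries 4778 had no count, and 26 symbols turned into calendar dates held 0.201% of counts. Totals over all 60 libraries were 10923963 to 20942463, and no pair of the 10 libraries agreed within sampling noise (lowest chi-square per degree of freedom 4.55).

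Counts were fitted with edgeR 4.0.16 (R 4.3.3): TMM scaling, filterByExpr (minimum count 10, total 15), 1 model of 12 group means, quasi-likelihood F tests, Benjamini-Hochberg adjustment over 14180 genes and a threshold of 0.05. Standard errors are the log2 fold change over the root of F. The procedure was tested on simulated data. DESeq2 1.42.0 and limma 3.58.1 were alternatives. Members and lists were chosen with earlier results of these data known. Named genes were the 10 highest and 10 lowest called changes with mean CPM of at least 1, groups apart and a settled symbol, up to 4 called members per list, members of the clock lists, members of the sex-biased, growth hormone and pancreas lists given by value or range, and up to 3 genes per tested difference. Some genes that this rule names are not reported here. Positions are from GENCODE M21. Of 139 named genes 71 overlap another annotated gene, 51 of them 1 on the other strand (Dbp and Nr1d1 among them). Members of the Cyp2a, Cyp2c, Ugt2b, Sult2a, Mup, H2, HSP70 and pancreatic enzyme families can share reads and are uncertain.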

Additional observations from a re-analysis of the deposited data

Results flagged for a closer look

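In 37 of 277 groups of 5 tested, 1 library lay apart from the rest by more than Dixon's 95% critical value (0.71), which chance gives in about 1 in 20 groups. There were 23 such groups at 40 weeks and 14 at 60 weeks, and genes of a list are not independent of each other.

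Animal 503 (40 weeks) was the highest library for Acot3 (58.9 CPM), Cyp2c40 (49.9 CPM) and Cyp2c69 (31.9 CPM). Animal 492 (40 weeks) was the highest library for Acta1 (2.92 CPM) and Sult2a2 (0.0729 CPM). Animal 501 (40 weeks) was the highest library for Cd74 (130 CPM), H2-Aa (46.8 CPM), H2-Ab1 (46.2 CPM), H2-Eb1 (42.2 CPM) and Itgax (4.13 CPM). Animal 502 (40 weeks) was the highest library for Clps (1 CPM), Ctrb1 (6.78 CPM), Hspa1a (0.944 CPM), Nfil3 (23.9 CPM), Pnlip (6.37 CPM), Reg1 (0.472 CPM), Sycn (0.413 CPM), Tbx3 (199 CPM), Trat1 (2.71 CPM) and Tspan4 (59.6 CPM). Animal 502 (40 weeks) was the lowest library for Cyp4a12a (476 CPM), Ppargc1a (10.1 CPM) and Rora (237 CPM). Animal 21 (60 weeks) was the highest library for Acta1 (15.2 CPM). Animal 171 (60 weeks) was the highest library for Bag3 (146 CPM), Ddit4 (348 CPM), Dusp1 (161 CPM), Gadd45g (62.8 CPM), Gdf15 (139 CPM), Moxd1 (128 CPM), Per2 (65 CPM) and Slc35f1 (9.63 CPM). Animal 171 (60 weeks) was the lowest library for Cpt1a (314 CPM) and Pnpla2 (55.8 CPM). Animal 23 (60 weeks) was the highest library for Bhlhe41 (3.85 CPM), Hist1h1e (49.9 CPM) and Hlf (113 CPM).

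The change between 60 and 40 weeks differed between control females and control males for 50 of the named genes in edgeR's test of the difference itself, with adjusted p from 2.95e-06 to 0.0494. The female minus male log2 difference was positive for Per2 (1.17), Hlf (0.94), Nr1d2 (1.33), Tef (2.18), Cyp2c40 (1.9), Cyp2c69 (2.53), Cry2 (1.07), Noct (1.77), Ciart (3.65), Per3 (3.97), Ugt2b38 (3.63), Por (0.91), Gys2 (0.85), Bhlhe41 (3.52), Dbp (5.49), Wee1 (2.37), Pnpla2 (0.68) and Usp2 (3.22). It was negative for Npas2 (-3.78), Phlda3 (-1.75), Cry1 (-1.43), Mdm2 (-0.64), Igfbp1 (-3.18), Stat5b (-0.3), Rsad2 (-1.02), Dnajb9 (-1.79), Nfil3 (-2.14), Pnpla3 (-2.55), Ppard (-2.33), Clps (-9.85), Cdkn1a (-2.59), H2-Ab1 (-1.14), H2-Aa (-1.23) and H2-Eb1 (-1.26). Negative values were also found for Hspa1b (-3.23), Cd74 (-1.08), Slc22a27 (-1.97), Ppp1r3c (-2.14), Pnlip (-8.65), Ddah1 (-1.78), Lck (-2.01), Pdk4 (-1.8), Reg1 (-10.21), Sycn (-10.86), Arntl (-2.45), Irs2 (-1.2), Gdf15 (-1.75), Ctrb1 (-8.62), Leo1 (-0.76) and Lonrf3 (-1.75). The change differed between the diets in males, with a negative HF/HS minus control difference, for Ddah1 (-2.03), Cyp2a4 (-3.32) and Cyp2a5 (-2.61).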

How the results depend on the processing

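The count of genes called between 60 and 40 weeks in control males (4364) was 3537 to 5989 over the alternatives, 3586 to 4217 without 1 library, 4900 without 3 libraries that stand apart in other groups (chosen after seeing the data), and 617 with a 2-fold rule added. The female minus male difference (1003 genes) gave 3061 with limma voom and 1834 without those 3 libraries. The HF/HS minus control difference (23 genes) gave 210 with only its own libraries, 11 with male libraries only, 64 with DESeq2, 778 with voom, 74 without animals 22 and 23, 39 without the 3 libraries apart, and 12 (without animal 11) to 63 (without animal 23) on leaving out 1 library. The cause was not tested. Of 2765 values of 139 named genes, 2571 kept direction and side of the threshold, 146 were weaker, 45 stronger and 3 reversed: Bhlhe40 (-0.12 to 0 without 1 library, 0 without animal 503), Pnlip (-0.38) and Reg1 (-0.43, both without animals 22 and 23), none of them called. Of 115 called named genes, 22 lost the call without at least 1 library. No paired analysis was possible because animal numbers are not shared between the groups. The 5 libraries per group and an unknown hour of collection limit the comparison, and genes with few counts (Sult2a2, Trat1, Fosb) rest on counting error as well.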
